A study of Mus musculus with 14 samples.

Results

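The clustered protocadherins are a family of cell surface adhesion proteins encoded by 3 neighbouring gene clusters, alpha, beta and gamma. Members were taken by symbol alone: every gene whose mouse symbol begins with Pcdha, Pcdhb, Pcdhga, Pcdhgb, Pcdhgc or Pcdhac followed by a number. This gave 58 of the 55416 genes in the tables, 14 of the alpha cluster, 22 of the beta cluster and 22 of the gamma cluster. Symbols matched 52083 of the identifiers. A pair of identifiers carried the symbol Pcdha11 (ENSMUSG00000007440 and ENSMUSG00000102206) and were kept apart. The rule itself used no measured value, but as a family the genes were chosen by their expected counts and TPM in the 4 groups, already known when the family was put forward. The calls below therefore describe these libraries and support nothing beyond them.

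Male C57BL/6 mice, 6 to 8 weeks old, gave the bulk RNA, from lung and from the gastrocnemius of the calf. The tumour cells are a line called KrasIKKaL, instilled through the trachea, and the series asked about targets shared by cachexia and muscle side effects of immunotherapy. Titles mark libraries CON, taken as control, or TB, taken as tumour-bearing. Muscle has 3 of each, and lung has 3 controls and 5 tumour-bearing libraries. The treatment of the controls is not stated. Since no label ties libraries to separate animals, a p-value speaks only of the spread between these libraries, which may be technical. In bulk tissue, fewer cells of a type and less RNA per cell cannot be told apart. The share of injected cells in tumour-bearing lung was not measured.

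Clustered protocadherins are best known in neurons, where each cell uses its own choice of variable exons and the encoded proteins bind the same isoforms on neighbouring cells, a basis for telling self from non-self. An alpha or gamma transcript joins a member's own variable exon, which encodes the extracellular cadherin repeats and the membrane span, to constant exons shared by all members of that cluster. Beta genes consist of a single exon and have no constant part. The C-type members, Pcdhac1, Pcdhac2, Pcdhgc3, Pcdhgc4 and Pcdhgc5, sit at the end of their clusters and are chosen in a more regular way than the others.

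That architecture bears on every alpha and gamma value, because a read in a constant exon cannot be placed on 1 member. In the GENCODE M21 models, the 14 alpha transcripts had 2346 to 3028 bases of their own and 2860 constant bases, which came to 48.6% to 54.9% of the model. The 22 gamma transcripts had 2499 to 2961 own bases and 2116 to 2119 constant bases, 41.7% to 45.9% of the model. The 22 beta models, of 2588 to 8695 bases, had none.

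**Figure D1:**
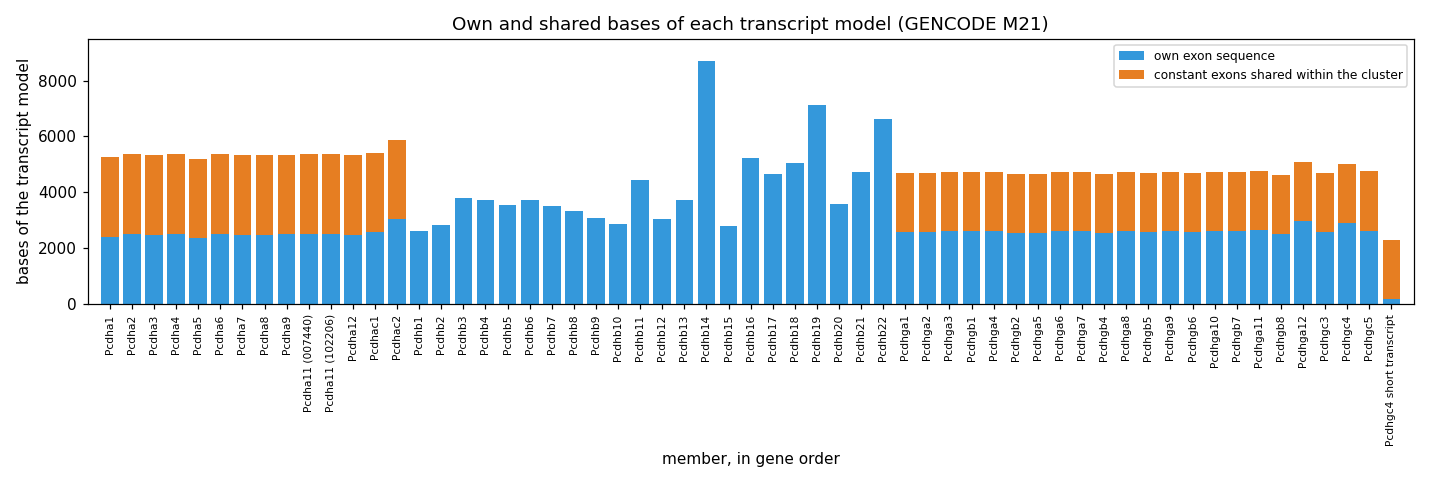
Bases of each member's transcript model that are its own exon sequence (blue) or constant exons shared within the cluster (orange), with the members in gene order along the x axis and the short transcript of Pcdhgc4 at the right. Alpha and gamma models are close to evenly divided, beta models hold no shared exon, and the short Pcdhgc4 transcript is 93.3% constant.

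The split of shared reads is visible in the counts. RSEM, the counting program, divides a read among the transcripts that could have made it, so its expected counts need not be whole. Among values above 0, 42 of 49 alpha values (85.7%) and 271 of 291 gamma values (93.1%) were not whole, against 22 of 279 beta values (7.89%) and 22.3% over all genes, with values within 0.005 of an integer taken as whole. For the 10 gamma A and B genes with a single transcript, 50 muscle values above 0 were used, with the larger values left out. Of these, 31 lay within 0.05 of a multiple of 1.84, and 2 lay within 0.05 of a whole number. The step of 1.84 was picked, out of a range of steps, because most of these same values lay near its multiples. The count of 31 is therefore a description and not a test. The model of such a gene is 1.80 to 1.85 times as long as its own exon, a ratio close to this step. Of 98 muscle values of 18 single-transcript beta genes, taken within the same limits, 96 lay within 0.05 of a whole number.

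Pcdhgc4 needs separate mention. It has 3 transcript models in M21, and the shortest, of 2272 bases, carries 2119 constant bases and 153 of its own. The mean transcript length listed for Pcdhgc4 was 2274.38 to 2329.19 bases over the 14 libraries, which puts at least 93.1% to 99.7% of its abundance on this short model. A read assigned to that model lies mostly in constant exons, where reads of different gamma members cannot be told apart. A further 14 genes overlap members, 5 on the same and 9 on the opposite strand. The strand setting of the counting is not stated, so reads of antisense partners and members cannot be told apart. Of these 14 genes, 10 stayed under 10 counts in every library. The highest was BC037039, antisense to Pcdhgc3, at up to 163 counts.

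Library totals were 32476228 to 44169446 counts in muscle and 47947395 to 61087362 in lung. A count of 0 in a library allows up to 3 counts, or 0.0491 to 0.0924 CPM, counts scaled to a common library size, and this floor covers counting error only. Tissue labels held on their markers: Sftpc, surfactant protein C of alveolar type 2 cells, was at 0 in all muscle libraries, and Acta1, skeletal actin, reached at most 0.36 CPM in lung against 27469 ± 3590 CPM (SD, n = 3) in control muscle. Tumour-bearing muscle replicate 1 stood apart within the gamma cluster. Its gamma sum without Pcdhgc4, chosen after its values were seen, was 17.5 CPM, against 4.53 to 9.11 in the other 5 muscle libraries. With Pcdhgc4 the sum was 25.1 CPM, inside the 19.1 to 27.5 CPM of the others. Pcdhgc4 held 30.3% of the gamma counts there, against 66.0% to 80.1%. Whether shared reads moved between Pcdhgc4 and other members was not tested. The leukocyte marker sum of this replicate was the highest in muscle, at 33.0 CPM against 6.15 to 11.5.

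In control lung, all 3 clusters were expressed. Pcdhgc3 led at 53.83, 46.19 and 39.05 TPM, a level that corrects for transcript length, a mean of 46.4 ± 7.39 (SD, n = 3). Pcdhgc4 followed at 28.34, 37.39 and 40.79 TPM. The ranges of these neighbours in the order overlapped. Pcdhac2, the last alpha gene, came next at 9.07, 8.90 and 8.24 TPM, clear of the members on either side.

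Below these came gamma B and A members: Pcdhgb6 (6.37 ± 1.01 TPM), Pcdhgb2 (5.93 ± 0.28), Pcdhga10 (4.63 ± 0.40) and Pcdhgb7 (3.73 ± 0.61). Only Pcdhgb2 and Pcdhga10 among these neighbours had ranges that did not overlap. The leading beta members were Pcdhb9 (3.30 ± 0.48 TPM) and Pcdhb17 (2.41 ± 0.28). All 22 beta and all 22 gamma members had counts above 0 in every control lung library, and 21 beta and all 22 gamma members had at least 10. In the alpha cluster, 2 members were at 0 throughout and 8 were above 0 in every control lung library, 4 of them with at least 10 counts. Pcdhac2 alone held 94.2% of the alpha counts. The beta and the gamma A and B counts were more spread out, with the 3 leading members at 37.1% and 38.0% of them.

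Among the other alpha members, Pcdha4 had 0.29, 0.35 and 0.18 TPM and Pcdhac1 had 0.19, 0.11 and 0.20 TPM. Pcdha11 (ENSMUSG00000007440) had 11.45, 15.52 and 16.08 expected counts. The pattern is thus 1 C-type alpha gene far above the rest, rather than a spread over the cluster.

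**Figure D2:**
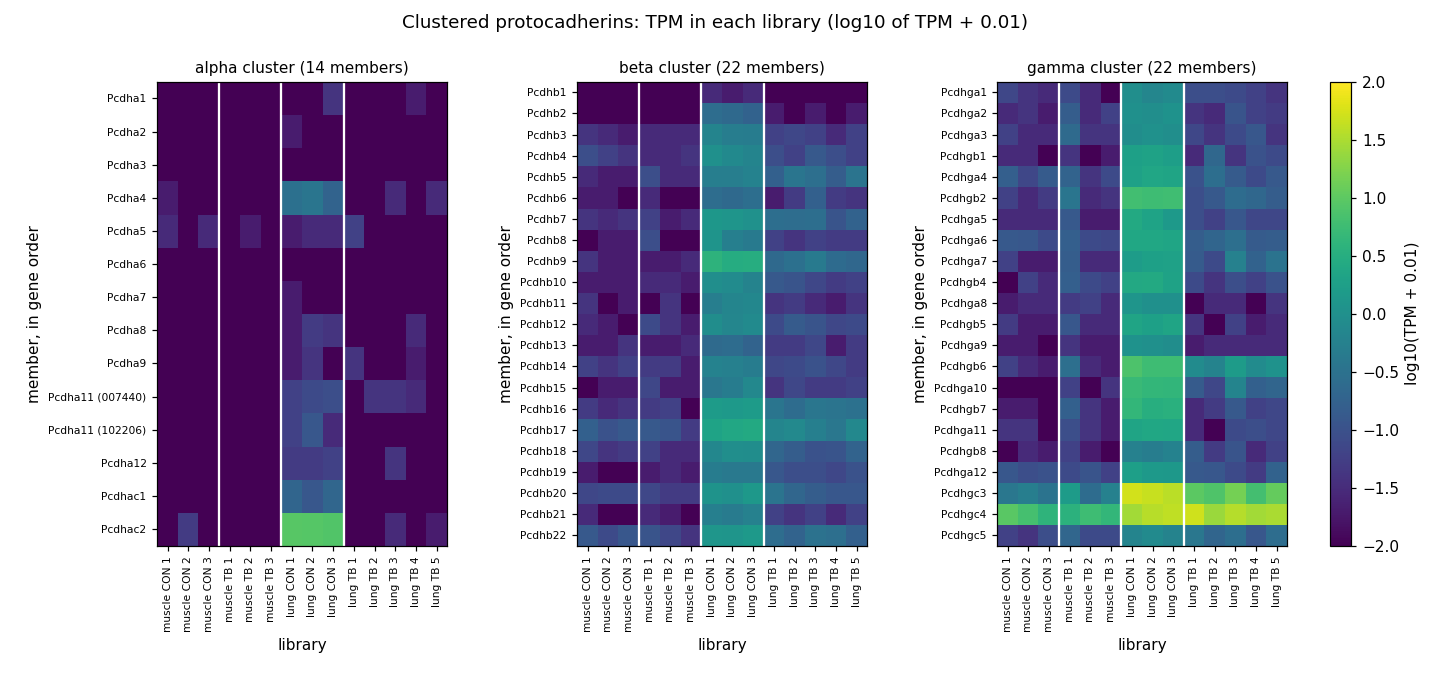
TPM of each of the 58 members (rows, in gene order within each cluster) in each of the 14 libraries (columns), coloured by log10(TPM + 0.01). Control lung libraries are the bright columns of all 3 panels, tumour-bearing lung is darker for nearly every row, and Pcdhgc4 is bright in all 14 libraries.

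Muscle held far less. Control muscle had 7.83 ± 2.95 TPM summed over the gamma cluster, 0.62 ± 0.16 over the beta cluster and 0.03 ± 0.01 over the alpha cluster (n = 3), against 127 ± 4.23, 19.2 ± 1.02 and 9.42 ± 0.49 TPM in control lung. Pcdhgc4 supplied 72.5% to 80.1% of the gamma counts in control muscle. In control muscle, 11 of 14 alpha members, 2 beta members and 1 gamma member were at 0 in all 3 libraries. Pcdhac2 was at 0, 11 and 0 expected counts, and Pcdhgc3 at 68.12, 97.53 and 65.95.

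Control lung was tested against control muscle with edgeR, on the same control libraries that the tumour comparisons use. Over all 18053 genes tested, 81.3% were called at an adjusted p under 0.05, 44.9% higher in lung and 36.5% lower. Of the members, 46 were tested, 42 were higher in lung, 0 were lower and 4 did not pass. The median log2 difference was 3.13 over the members and 0.25 over all genes tested. The 3 tested alpha members, 19 of 21 beta members and 20 of 22 gamma members were higher, and 41 members had groups that did not overlap, all higher in lung; of all genes 83.9% did not overlap, 46.9% higher in lung. The 12 members not tested had too few counts.

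Among the called members, Pcdhgc3 was 18.2-fold higher in lung (log2 4.18, SE 0.25, adjusted p = 1.44e-06), Pcdhgb6 36.1-fold (log2 5.18, SE 0.28, adjusted p = 9.61e-07) and Pcdhb9 28.5-fold (log2 4.83, SE 0.30, adjusted p = 1.78e-06). The 4 that did not pass were Pcdhb13 (log2 1.00), Pcdhb22 (log2 0.57, adjusted p = 0.077), Pcdhgc4 (log2 -0.34, adjusted p = 0.0904) and Pcdhgc5 (log2 0.51, adjusted p = 0.28). These sizes depend on the scaling between tissues. As ratios of counts per library total, without TMM, Pcdhgc3 was 68.6-fold, Pcdhgb6 130.9-fold and Pcdhb9 104.8-fold higher in lung, and the members that did not pass were 7.49-fold (Pcdhb13), 5.53-fold (Pcdhb22), 5.41-fold (Pcdhgc5) and 2.82-fold (Pcdhgc4) higher. On log2(TPM + 1) all 46 were called higher (limma-trend). On that scale 16379 of all 18053 genes were called, in either direction, and the median of all genes was 1.66. For Pcdhgc4 the scale decided the sign. On log2(TPM + 1) it was higher in lung by 2.28 (adjusted p = 0.00019, limma-trend), beside the same median of 1.66.

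The order of the members by level was compared between the tissues. Across the 22 beta members, mean TPM in control muscle and control lung had a rank correlation of 0.75, and across the 19 gamma A and B members 0.10. These are descriptions across genes that share libraries, and many of the muscle values rest on a handful of reads.

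In tumour-bearing lung, nearly all members were lower than in control lung. Over all 19300 genes tested, 59.7% were called, 30.4% higher and 29.3% lower. Of the 58 members, 47 were tested: 44 were lower, 0 were higher and 3 did not pass, while 11 had too few counts. The lower calls comprised 3 of 4 tested alpha members, 20 of 21 beta members and 21 of 22 gamma members. The median log2 fold change was -3.08 over the 47 members, beside 0.07 over all genes, and 45 members had groups that did not overlap, all lower; of all genes 63% did not overlap, 32.1% lower.

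**Figure D3:**
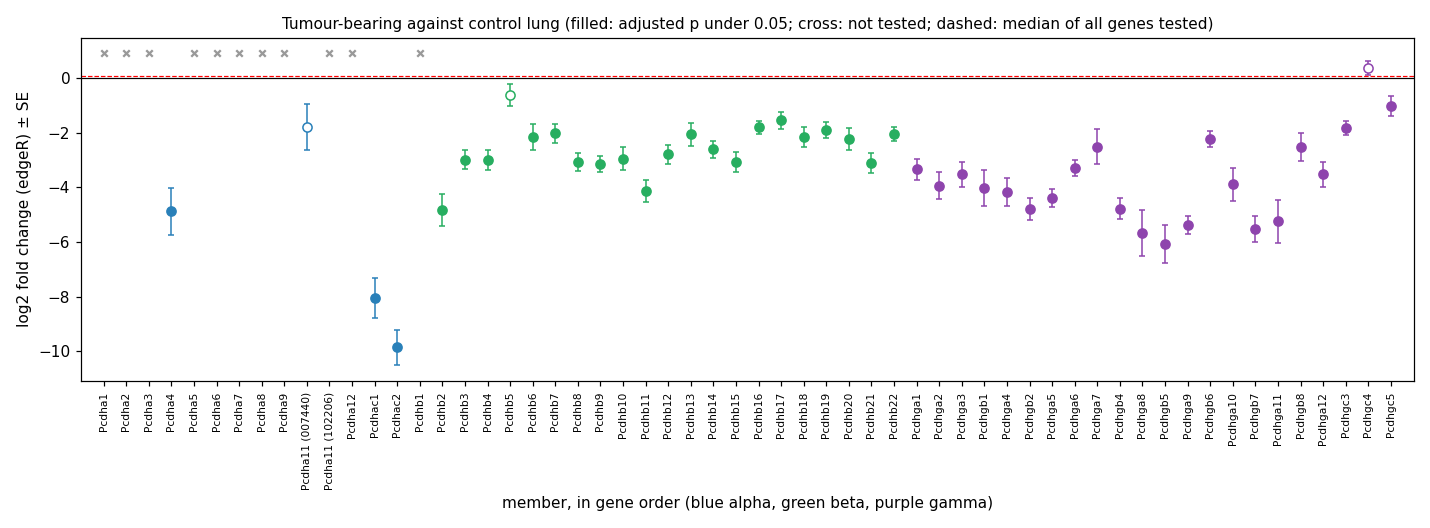
Log2 fold change of tumour-bearing over control lung with its SE (y axis) for each member in gene order (x axis), filled where the adjusted p was under 0.05, with crosses for members not tested and a dashed line at the median of all genes tested. Pcdhac2 lies lowest at -9.86, the beta members lie between -4.82 and -0.63, and Pcdhgc4 is the single member above 0, at 0.36.

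The alpha cluster had the largest ratio of the 3, and that ratio was set by Pcdhac2. Its summed level was 37.0, 37.9 and 35.1 CPM in the control libraries and 0.38, 0.14, 0.39, 0.23 and 0.15 CPM in the tumour-bearing ones, 142.9-fold apart in their means. Without Pcdhac2, a sum chosen after its values were seen, the means were 2.12 ± 0.088 and 0.22 ± 0.12 CPM, 9.60-fold apart and without overlap, a smaller ratio than the 12.7 of the gamma A and B sum. The median log2 change of the 4 tested members was -6.47, or -5.40 with Pcdhac1 at its bound. Pcdhac2 had 2138, 2121 and 1821 expected counts in control lung and 0, 0, 4.64, 1.29 and 3.45 in tumour-bearing lung. No tumour-bearing library came near any control library.

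The fitted change of Pcdhac2 was -9.86 on the log2 scale (SE 0.66, adjusted p = 6.06e-06). As a ratio of summed counts per library total it was 1144-fold lower, with a 95% counting interval of 602 to 2504. That interval takes rounded expected counts as separate reads and leaves out the spread between libraries, so it is too narrow. Pcdhac1, the other alpha C-type gene, had 42.05, 24.24 and 40.77 expected counts in control lung and 0 in all 5 tumour-bearing libraries. With a floor of 3 counts over the group it was at least 60.4-fold lower (adjusted p = 0.000493). Pcdha4, a member of the regular alpha series, had 47.99, 60.06 and 27.33 expected counts against 0, 0, 3.30, 0 and 2.55 (log2 -4.88, SE 0.84, adjusted p = 0.001). Pcdha11 (ENSMUSG00000007440) did not pass, at 0, 7, 7.41, 4 and 0 expected counts in tumour-bearing lung (log2 -1.80, adjusted p = 0.0911), although its groups did not overlap. The other 10 alpha members were too low to test.

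The beta cluster was lower by a smaller ratio. Its sum was 51.9, 51.1 and 52.7 CPM in control lung and 12.3, 12.2, 11.3, 8.45 and 12.02 CPM in tumour-bearing lung, a 4.62-fold lower mean. The median log2 change of its 21 tested members was -2.60. Beta values are the least affected by shared exons, and 20 of the 21 members were lower.

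Pcdhb9, the highest beta member in control lung, had 3.85, 2.98 and 3.06 TPM there and 0.22, 0.29, 0.42, 0.24 and 0.21 TPM in tumour-bearing lung (log2 -3.14, SE 0.29, adjusted p = 3.34e-05). Pcdhb11 showed one of the larger beta changes, from 0.50, 0.64 and 0.71 TPM to 0.03, 0.04, 0.02, 0.01 and 0.03 TPM (log2 -4.13, SE 0.41, adjusted p = 4.83e-05). Neither gene had overlapping groups. Pcdhb2 had the most negative beta estimate (log2 -4.82, SE 0.60), which rests on 3 counts over the 5 tumour-bearing libraries. Its count ratio was 39.0, with a 95% counting interval of 12.8 to 194, which leaves out the spread between libraries.

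The smallest changes among the called beta members were those of Pcdhb17 and Pcdhb16. Pcdhb17 had 2.10, 2.49 and 2.64 TPM in control lung and 0.66, 0.74, 0.52, 0.37 and 0.73 TPM in tumour-bearing lung (log2 -1.55, SE 0.30, adjusted p = 0.00191). Pcdhb16 went from 1.56, 1.43 and 1.53 TPM to 0.35, 0.25, 0.36, 0.33 and 0.30 TPM (log2 -1.80, SE 0.24, adjusted p = 0.000233). Both remained clear of their controls in every library. Pcdhb22 (log2 -2.05, SE 0.25), Pcdhb12 (log2 -2.80, SE 0.34) and Pcdhb10 (log2 -2.96, SE 0.42) lay in between, all with groups apart.

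Pcdhb5 was the beta member that did not pass. It had 69, 70 and 76 expected counts in control lung and 29, 55, 49, 21 and 46 in tumour-bearing lung (log2 -0.63, SE 0.40, adjusted p = 0.20). On the TMM-scaled CPM its groups overlapped.

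The gamma cluster is given by type. The sum over the 19 gamma A and B members was 146, 136.5 and 132 CPM in control lung and 8.28, 7.70, 16.99, 9.42 and 11.8 CPM in tumour-bearing lung, a 12.7-fold lower mean. All 12 gamma A and all 7 gamma B members were lower, with median log2 changes of -3.92 and -4.78. The sum over all 22 gamma members, which includes Pcdhgc4, was 2.81-fold lower, at 334 ± 15.8 against 119 ± 25.8 CPM. Without Pcdhgc4 it was 5.44-fold lower, a sum chosen after its values were seen.

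Pcdhgb5 had the most negative gamma change, from 399, 354 and 370 expected counts to 7.51, 0, 10.79, 2 and 3.71 (log2 -6.06, SE 0.70, adjusted p = 0.000104). Pcdhga9, with the smallest p of the cluster, went from 1.08, 0.99 and 0.89 TPM to 0.01, 0.02, 0.02, 0.02 and 0.02 TPM (log2 -5.37, SE 0.32, adjusted p = 3.4e-06). Pcdhgb7 went from 4.42, 3.26 and 3.50 TPM to 0.02, 0.04, 0.12, 0.05 and 0.06 TPM (log2 -5.53, SE 0.48, adjusted p = 2.28e-05). In these 3 genes the highest tumour-bearing library was far under the lowest control library.

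Pcdhgb2 fell from 6.21, 5.65 and 5.92 TPM to 0.08, 0.12, 0.25, 0.21 and 0.14 TPM (log2 -4.78, SE 0.40, adjusted p = 1.87e-05). Pcdhgb4 (log2 -4.78, SE 0.39) and Pcdhga5 (log2 -4.39, SE 0.34) were close to it. Pcdhga10 fell from 5.09, 4.44 and 4.36 TPM to 0.13, 0.06, 0.62, 0.16 and 0.19 TPM (log2 -3.89, SE 0.61, adjusted p = 0.000556), with replicate 3 the highest of the tumour-bearing libraries. The same replicate 3 had the highest gamma A and B sum of the 5.

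Pcdhgb6 had the smallest estimated change of the gamma A and B members, within the errors of Pcdhga7 (log2 -2.52, SE 0.63) and Pcdhgb8 (log2 -2.52, SE 0.52). It had 7.54, 5.79 and 5.78 TPM in control lung and 0.83, 0.60, 1.58, 0.85 and 1.10 TPM in tumour-bearing lung (log2 -2.24, SE 0.30, adjusted p = 0.000219). Its share of the gamma A and B counts was 13.4% to 15.6% in the control libraries and 33.2% to 42.9% in the tumour-bearing libraries. It was the top gamma A or B member in all 3 control and all 5 tumour-bearing libraries, but in control lung Pcdhgb2 was close behind, at 12.8% to 13.7%. In tumour-bearing lung Pcdhgb2 held 3.30% to 9.82%.

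**Figure D4:**
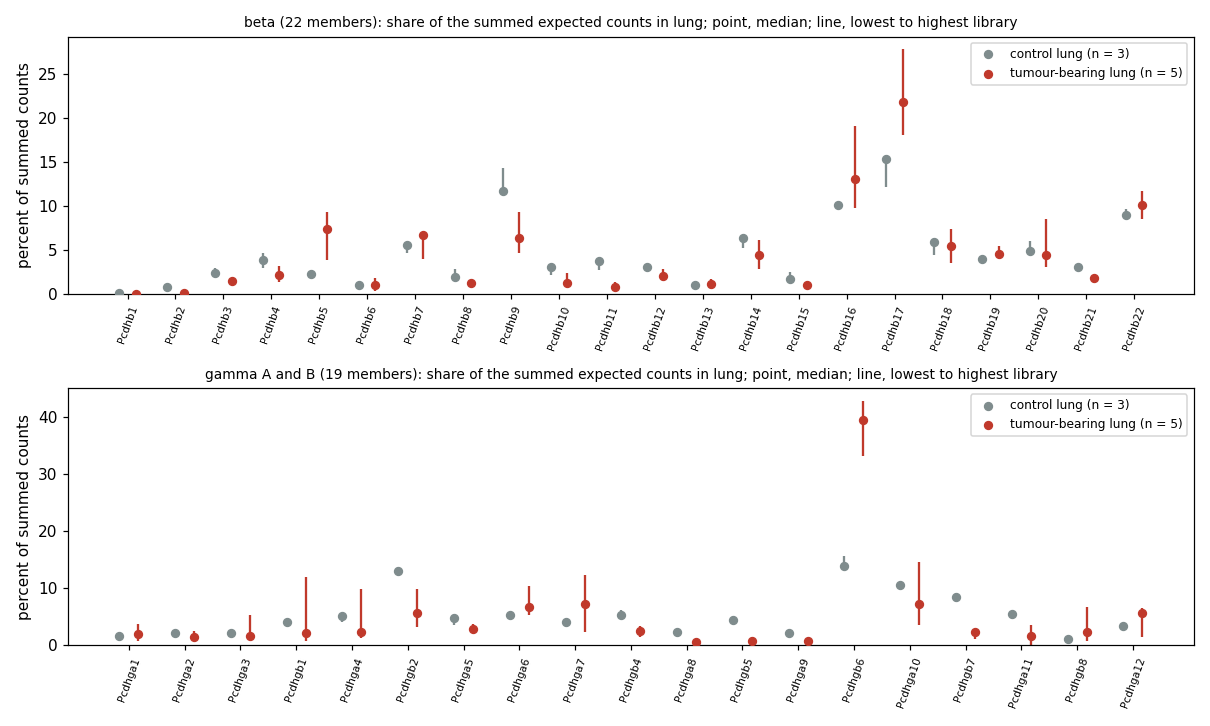
Share of the summed expected counts held by each beta member (upper panel) and each gamma A or B member (lower panel) in control lung (grey, n = 3) and tumour-bearing lung (red, n = 5); points are medians and lines run from the lowest to the highest library. Pcdhgb6 stands out in the lower panel at 33.2% to 42.9% of tumour-bearing counts, and Pcdhb17 and Pcdhb5 hold larger shares there than in control lung.

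Within the beta cluster, Pcdhb17 held 12.2% to 15.8% of the counts in control lung and 18.05% to 27.9% in tumour-bearing lung, and led the cluster in 4 of the 5 tumour-bearing libraries. Pcdhb5 held 2.17% to 2.62% in control and 3.87% to 9.37% in tumour-bearing lung. Pcdhb9 went the other way, with 11.7% to 14.3% in control and 4.67% to 9.32% in tumour-bearing lung. For these 3 genes the ranges of the control and tumour-bearing libraries did not overlap. The same was true of several other beta members, Pcdhb11 among them, so ranges apart are not particular to these 3. The shares are given as descriptions, and their differences were not tested. Across the 22 beta members, mean TPM in control and tumour-bearing lung had a rank correlation of 0.83, and across the 19 gamma A and B members 0.48.

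Among the gamma C-type genes, 2 were lower and 1 did not pass. Pcdhgc3, the most abundant member in control lung, had 53.83, 46.19 and 39.05 TPM there and 9.66, 7.95, 14.79, 6.42 and 11.16 TPM in tumour-bearing lung (log2 -1.82, SE 0.25, adjusted p = 0.000259). Its groups were apart, and its change was smaller than the gamma median of -3.92. Pcdhgc5 had 0.63, 0.81 and 0.61 TPM against 0.37, 0.19, 0.27, 0.11 and 0.26 TPM (log2 -1.03, SE 0.35, adjusted p = 0.0301). That call was lost under 7 of the alternatives, with adjusted p up to 0.108: no filter, all 14 libraries in 1 fit, a replicate block, and without each of control lung replicates 1, 2 and 3 and tumour-bearing lung replicate 2.

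Pcdhgc4 did not pass. It had 2504, 3310 and 3313 expected counts in control lung and 6025, 2470, 3880, 2733 and 2681 in tumour-bearing lung (log2 0.36, SE 0.24, adjusted p = 0.22), with overlapping groups and replicate 1 the highest. On log2(TPM + 1) the difference was -0.075. Its share of the gamma counts was 11.7% to 18.9% in control lung and 46.9% to 69.0% in tumour-bearing lung, and it was the largest share in all 5 tumour-bearing libraries.

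**Figure D5:**
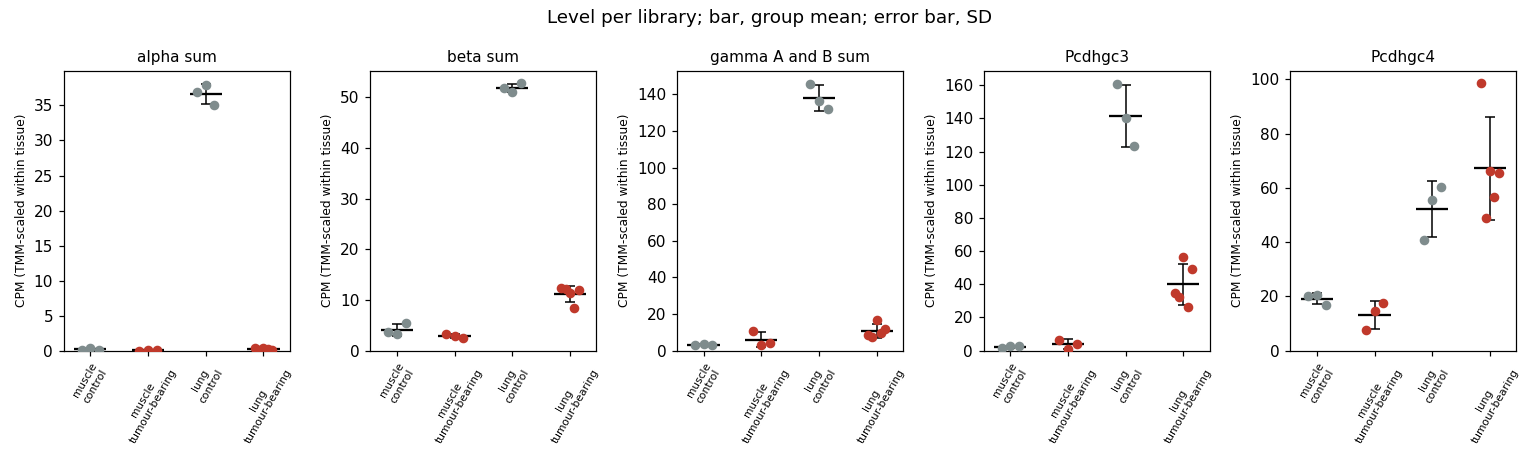
Level in each library, in TMM-scaled CPM on linear axes that start at 0, of the alpha sum, the beta sum, the sum of gamma A and B members, Pcdhgc3 and Pcdhgc4, for control (grey) and tumour-bearing (red) libraries of muscle and lung, with group means and SD; CPM were scaled within each tissue and are not set across tissues. In lung the tumour-bearing libraries lie below the controls without overlap in every panel except that of Pcdhgc4.

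Cell type markers also differed between the groups in lung. The summed level of 8 endothelial markers was 3118 to 3229 CPM in control lung and 155 to 188 in tumour-bearing lung, with 8 of 8 lower. Alveolar type 2 markers were 6 of 6 lower (19932 to 21983 CPM against 131 to 1046) and alveolar type 1 markers 6 of 6 lower (3776 to 4348 against 18.3 to 223). The ratios of the mean sums were 18.6, 34.6 and 30.6. Those of the members were 142.9 for the alpha sum, 4.62 for beta, 2.81 for all gamma and 12.7 for gamma A and B. Pcdhac2 set the alpha ratio, which was 9.60 without it. No gene of these 3 lists was at 0 throughout tumour-bearing lung.

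Muscle markers, at low levels in lung, were lower too: myofibre markers in 4 of 4 tested (7.27 to 16.6 against 0.46 to 1.73 CPM, a ratio of 16.3) and satellite cell markers in 1 of 1 tested (0.32 to 0.53 against 0 to 0.068 CPM, a ratio of 16.5, close to the floor). The other lists had smaller ratios or went the other way. Of 10 fibroblast markers 5 were lower, and their sums overlapped at 2083 to 2166 against 684 to 2149 CPM. Mural markers were 3 of 6 lower and 1 higher (421 to 552 against 143.1 to 287 CPM). Neuronal markers were 2 lower and 2 higher of 6 tested, with 1 too low to test (65.0 to 68.8 against 13.4 to 42.4 CPM), and Stmn2 alone supplied 58.3 to 61.1 CPM in control lung. Schwann markers gave 1 higher of 6 (60.4 to 64.1 against 99.97 to 161 CPM), with the defining gene Sox10 at no more than 0.36 CPM in any lung library. Leukocyte markers were 3 of 7 lower (157 to 255 against 95.6 to 135) and mesothelial markers 1 higher and 2 lower of 4 (25.9 to 57.3 against 144 to 534). All 4 proliferation genes were higher (27.4 to 38.8 against 235 to 555 CPM). The part of these shifts in the protocadherin values was not tested.

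In muscle, no tested member passed between tumour-bearing and control libraries. Over all 14373 genes tested, 15.3% were called, 8.53% higher and 6.75% lower, and 43.1% had groups that did not overlap. Only 10 of the 58 members had enough counts to test, 3 beta and 7 gamma, and 0 passed in edgeR, with 1 at an unadjusted p under 0.05. DESeq2 and limma-voom also called 0. The median log2 change was -0.37 over the 10 members and -0.03 over all genes.

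All 3 tested beta members had negative estimates. Pcdhb22, the one with an unadjusted p under 0.05, had 35, 23 and 36.92 expected counts in control muscle and 21, 17.85 and 8 in tumour-bearing muscle (log2 -1.22, SE 0.47, adjusted p = 0.102). Pcdhb17 had 33, 19 and 27 against 26, 22 and 8 (log2 -0.69, SE 0.46, adjusted p = 0.308). On TMM-scaled CPM both genes had groups that did not overlap. Pcdhb22 passed when all 14 libraries were fitted together (adjusted p = 0.0389).

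Several gamma values in muscle hung on replicate 1 of the tumour-bearing group, whose whole gamma sum did not stand apart. Pcdhgc3 had 68.12, 97.53 and 65.95 expected counts in control muscle and 329, 41.80 and 110 in tumour-bearing muscle (log2 0.80, SE 0.58, adjusted p = 0.34). Pcdhgb2 had 11.20, 3.73 and 5 against 74.61, 3.72 and 7.46, and Pcdhgb6 had 11.15, 3.72 and 1.86 against 60.80, 3.70 and 1.86. In Pcdhgb2 and Pcdhgb6, replicate 1 was several times above every other muscle library. For Pcdhgc3 it was the highest, at 6.67 CPM with tumour-bearing replicate 3 next at 4.25 and the other 4 libraries at 1.08 to 2.94. Without tumour-bearing replicate 2, Pcdhgc3 (log2 1.28, adjusted p = 0.0422) and Pcdhga2 (log2 2.07, adjusted p = 0.0424) passed as higher.

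Pcdhgb4 was the tested gamma member with groups apart, at 0, 11.19 and 3.73 expected counts in control muscle and 31.68, 14.85 and 11.40 in tumour-bearing muscle (log2 1.66, SE 0.89, adjusted p = 0.21). Pcdhgc4 had 933, 689 and 440 against 374, 567 and 456 (log2 -0.53, SE 0.33, adjusted p = 0.274). Pcdhgc5 had 14.05, 9.03 and 24.04 against 8.56, 18.15 and 18.93 (log2 -0.11, adjusted p = 0.92), and its sign turned in 3 alternatives. The alpha cluster summed to 0 to 3 expected counts in tumour-bearing muscle and to 4 to 11 in controls, or 0 to 0.077 CPM against 0.15 to 0.33 CPM, without overlap. No alpha member had enough counts to pass the filter, and the control value rests on few reads: Pcdhac2 had 11 counts in 1 control library and 0 in the other 5 muscle libraries. Without Pcdhac2 the sums overlapped. Without a filter on low counts 4 of 45 members tested passed, beside 4057 of all 26213 genes. Of the 4, 3 were higher and 1 lower, all on few counts: Pcdhga10, Pcdhgb7 and Pcdhgb2 higher and Pcdhac2 lower.

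Markers in muscle moved as well. Fibroblast markers were 8 of 10 lower (835 to 1707 CPM in controls against 373 to 1012), satellite cell markers 2 of 3 tested lower, and leukocyte markers 3 higher and 1 lower of 6 tested (6.15 to 7.91 against 8.90 to 33.0). Endothelial markers were 1 of 8 lower (168 to 311 against 124 to 252). Mural markers were 2 of 6 lower (245 to 352 against 186 to 270). Of 7 neuronal markers only Stmn2 had enough counts to test and it was lower (log2 -1.54, adjusted p = 0.0419), and the list's sums did not overlap (3.59 to 9.62 against 1.60 to 2.78 CPM). Myofibre markers gave 1 higher of 6 (71639 to 81891 against 67452 to 109292 CPM). Schwann markers gave 0 of 6 and ranged from 40.5 to 394 CPM within the controls alone. Their part in the muscle values was not tested.

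The tumour effect was compared between the tissues with an interaction term fitted to all 14 libraries, in which a negative value means a lower effect in lung than in muscle. Over all 19835 genes, 35.6% were called, 16.6% positive and 19% negative. Of 46 members tested, 30 were called, all negative: 0 of 3 alpha, 11 of 21 beta and 19 of 22 gamma members. The median was -3.22 over the members and -0.05 over all genes. In muscle alone only 10 members had enough counts to test, so most of the 46 passed the filter through lung. Control lung held the higher counts, so a negative value was easier to reach than a positive one. The filter may thus set part of this share and its sign.

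Pcdhga9 (interaction -6.53, SE 0.83, adjusted p = 4.63e-05), Pcdhgb2 (-6.57, SE 1.00, adjusted p = 0.000211) and Pcdhgc3 (-2.62, SE 0.62, adjusted p = 0.00504) were among those called. Most muscle counts of gamma A and B genes were low, several of them at or under the floor of 3, so the size of their interaction depends on how near-zero counts are fitted. Pcdhgc3 had counts of at least 41.80 in all muscle libraries. Pcdhb12 had the most negative interaction among the named beta members (-4.31, SE 0.85, adjusted p = 0.00149). Pcdhac2 and Pcdhac1 did not pass, with almost no counts in muscle to set beside their change in lung. Leaving out tumour-bearing muscle replicate 1 ended the call of Pcdhgb6 (-1.53, adjusted p = 0.152), leaving out replicate 2 that of Pcdhb11 (-1.81, adjusted p = 0.507), leaving out replicate 3 that of Pcdhb9 (-2.30, adjusted p = 0.117), and leaving out control muscle replicate 2 that of Pcdhb11 (-3.37, adjusted p = 0.0535).

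A set of 3 lists of related genes were set beside the members. The non-clustered protocadherins have their own loci and no shared constant exons. In lung, 9 of 12 were tested, 7 were lower and 2 higher, with a median of -2.86. Over all genes tested in lung, 29.3% were lower and 30.4% higher. Pcdh12, an endothelial protocadherin, went from 35.0 ± 1.01 to 2.44 ± 0.75 CPM (log2 -3.84, SE 0.28, adjusted p = 9e-06, n = 3 and 5), and Pcdh17 from 47.7 ± 2.46 to 6.38 ± 2.69 CPM (log2 -2.90, SE 0.32, adjusted p = 7.7e-05). In muscle 0 of 6 tested passed, beside 15.3% of all genes tested there.

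Regulators of the clusters include CTCF and cohesin, which loop enhancers to the chosen promoters, Rest, a repressor of neuronal genes, and DNA methyltransferases and Smchd1, which act in silencing. In lung 4 of 17 were higher and 2 lower, with a median of 0.10, beside 30.4% higher and 29.3% lower of all genes. Rad21 and Rest had the smallest p of the list. Rad21, a cohesin subunit, rose from 140 ± 1.53 to 344 ± 70.3 CPM (log2 1.303, SE 0.20, adjusted p = 0.000507). Rest rose from 22.8 ± 0.88 to 48.0 ± 3.64 CPM (log2 1.08, SE 0.13, adjusted p = 0.000156). In muscle 0 of 17 passed, beside 15.3% of all genes tested there. The 2 with the smallest p, Wapl and Pds5a, had 14.7 ± 2.63 against 36.7 ± 25.3 CPM and 20.3 ± 2.53 against 12.9 ± 1.35 CPM (n = 3 each).

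Partners and processing enzymes include the kinases Ptk2, Ptk2b and Fyn, members of the WAVE actin complex, and the proteases Adam10 and gamma-secretase that cut protocadherins. In lung 6 of 17 were higher and 2 lower, with a median of 0.43, beside 30.4% higher and 29.3% lower of all genes. Ptk2b rose from 28.3 ± 1.19 to 72.6 ± 16.9 CPM (log2 1.36, SE 0.22, adjusted p = 0.000769), and Fyn fell from 71.3 ± 3.49 to 9.97 ± 6.37 CPM (log2 -2.84, SE 0.45, adjusted p = 0.000657). In muscle 1 of 16 tested passed, as lower, beside 8.53% higher and 6.75% lower of all genes tested there. It was Ret, a receptor tyrosine kinase that binds protocadherins, which fell from 5.28 ± 0.71 to 1.64 ± 0.54 CPM (log2 -1.70, SE 0.34, adjusted p = 0.0183). Axin1, with the next smallest p of this list in muscle, had 6.70 ± 1.03 against 18.4 ± 11.8 CPM and did not pass.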

How the data were processed

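Per the submitters' processing notes, the tools were Trim Galore, STAR 2.7.9a and RSEM 1.3.3; their settings, the genome build and the strand option are not stated, and coordinates are left out. For each of 14 libraries the authors deposited RSEM expected counts (estimated counts) and TPM for 55416 genes. Exon structure came from GENCODE M21, whose transcript identifiers equal those listed for 57 of 58 members. Members and lists were chosen with earlier results of these data known. Expected counts were rounded and tested per tissue in edgeR 4.0.16 (R 4.3.3; TMM, filterByExpr, two-sided quasi-likelihood test, Benjamini-Hochberg over all genes tested, threshold 0.05). The tests were checked on simulated data with the same spread for all genes and changes only in genes above a mean of 1 CPM. That check does not cover members under this level. Log2 fold changes are tumour-bearing over control with SE taken as change over the square root of F; CPM are TMM-scaled within tissue. Comparisons share control samples. Named were the C-type members, the 3 highest members of each cluster by TPM, and the 2 tested members of each cluster with the smallest p in each comparison; of each related list, the 2 tested genes with the smallest p in each tissue; other genes (Pcdha11, Pcdhb2, Pcdhb5, Pcdhb13, Pcdhga2, Pcdhga7, Pcdhga10, Pcdhgb5, Pcdhgb8 and BC037039) were named after their values were seen. Every replicate pair differed beyond sampling noise (chi-square per degree of freedom 19.5 to 437). Alternatives were RLE and upper-quartile scaling, DESeq2 1.42.0, limma 3.58.1 (voom, and trend on log2(TPM + 1)), dropping the filter, keeping genes that average 1 CPM or more, a joint fit of the 14 libraries, a replicate block, and leaving out each library.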

Additional observations from a re-analysis of the deposited data

Results flagged for a closer look

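Among the 5 tumour-bearing lung libraries, 3 of 21 items (the named members and cluster sums) had a library far from the others by Dixon's criterion, which chance meets in about 1 in 20 groups. Pcdhb16 was lowest in replicate 2, at 1.19 CPM with the nearest at 1.52. Pcdhga9 was highest in replicate 5, at 0.0979 CPM with the nearest at 0.0682, which is close to the floor. The beta sum was lowest in replicate 4, at 8.45 CPM with the nearest at 11.3. In all 3 cases the tumour-bearing libraries stayed below every control library.

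The tumour effect differed between lung and muscle for 11 of the 19 named members by the interaction term of the edgeR fit. Some of the 19 were named for their small interaction p, so the share over all tested members, 30 of 46, is given beside 35.6% of all genes. That share is a description only. With 10 members testable in muscle alone, most of the 46 passed the filter through lung, where control counts were high. The filter may set part of the share and its sign. The beta values were -2.95 for Pcdhb9, -4.01 for Pcdhb10, -3.72 for Pcdhb11 and -4.31 for Pcdhb12 on the log2 scale. The gamma values were -6.57 for Pcdhgb2, -5.11 for Pcdhga5, -6.44 for Pcdhgb4, -6.53 for Pcdhga9, -3.92 for Pcdhgb6, -8.62 for Pcdhgb7 and -2.62 for Pcdhgc3. All 11 were lower in lung relative to muscle, and the muscle side rests on low counts for all of them except Pcdhgc3.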

How the results depend on the processing

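In lung, 30 to 45 members were lower and 0 higher under the alternatives run. The 30 came where a mean of at least 1 CPM left 31 members to test, with 9171 of 15178 genes called. The 45 came with limma-voom and log2(TPM + 1), where 11677 and 11588 of 19300 genes were called. It also came without a filter, where 12367 of 32534 genes were called. Leaving out 1 library gave 43 to 44. Pcdhgc5 was the only call lost among members still tested. In muscle the count of called members was 4 of 45 tested without a filter and 2 of 46 with all 14 libraries in 1 fit. Over all genes those fits called 4057 of 26213 and 3460 of 19835. The member count was 0 to 2 when 1 library was left out (2 without tumour-bearing replicate 2). The control lung against control muscle count was 41 to 47 with 1 library left out and 30 to 46 otherwise, and no filter gave 1 member lower. Over all genes, the fit behind the 30 (mean of at least 1 CPM) called 12374 of 14710. The fits behind the 46 called 16379 of 18053 on log2(TPM + 1) and 16383 of 30660 without a filter. The interaction count was 22 to 29 with 1 library left out, 16 of 22 tested when genes had to average 1 CPM, and up to 45 of 46 on log2(TPM + 1). Over all genes the 1 CPM fit called 6343 of 14928 and the log2(TPM + 1) fit 9025 of 19835.

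The log2 ratio of group means of the summed beta level was -0.52 in muscle and -2.21 in lung, and with deposited TPM -0.11 and -2.72. For the gamma sum in muscle it moved from -0.10 to a range of -0.19 to 0.036 with 1 library left out (0.036 without tumour-bearing replicate 2). Without Pcdhgc4, an alternative chosen after seeing the data, it was 0.76 in muscle, and in lung it moved from -1.49 to -2.44. Without Pcdhac2, also chosen after seeing the data, the alpha ratio in lung moved from -7.16 to -3.26. Pcdhgc5 in muscle turned from -0.11 to 0.078 on log2(TPM + 1), and with 1 library left out it ranged from -0.58 to 0.64 (0.64 without control replicate 3, 0.32 without tumour-bearing replicate 1). Pcdhgc4 turned from 0.36 to -0.075 in lung, and from -0.34 to 2.28 between control tissues, on log2(TPM + 1). Upper-quartile scaling moved the median of all genes in muscle to -0.25, and log2(TPM + 1) moved it to -0.23 in lung.

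With the replicate number as a block, counts were 0 in muscle, 43 in lung, 41 between control tissues and 24 for the interaction. No label states whether the numbers pair the samples. Deviations of same-numbered libraries correlated at 0.37, -0.04 and 0.43 in muscle, beside -0.48 to 0.08 for different-numbered ones. In lung they correlated at 0.06, 0.10 and -0.01, beside -0.14 to 0.11. Over all genes in muscle, 3303 of 14373 were called with the block and 2196 without it. These values do not settle whether the muscle libraries are paired. Depth limits the alpha cluster and most variable gamma genes in muscle, where values lie near the floor.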
